A study of Mus musculus with 59 samples.

Results

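Expression of 10 circadian clock genes was followed in mouse brown adipose tissue, the heat-producing fat, in 59 mice. The genes were chosen by name: the activators Arntl, Clock and Npas2, the REV-ERB receptors Nr1d1 and Nr1d2, the repressors Per1, Per2, Per3 and Ciart, and the output factor Dbp. All 10 were found among the 55341 gene symbols of each of the 3 count tables. All mice were C57BL/6J males of 8 to 12 weeks. In the hormone experiment, wild-type (WT) mice were fed propylthiouracil (PTU), which blocks synthesis of thyroid hormone, and either had no hormone (4 mice) or were sampled 3, 6, 12 or 24 h after a single injection of T3 and T4 (PTU+TH, 4 mice at each time). Mice of the BATKO genotype had PTU alone (5 mice) or PTU+TH for 24 h (5 mice). In the temperature experiment, control (CTRL) mice were kept at 4 °C (3 mice) or 30 °C (4 mice) and BATKO mice at 4 °C (4 mice) or 30 °C (5 mice), in a table whose label carries 24 h. In the diet experiment, CTRL mice had a high-fat diet (HFD, 4 mice) or chow (4 mice) and BATKO mice HFD (3 mice) or chow (2 mice), in a table whose label carries 3.5 days. The gene altered in BATKO mice, the promoter driving the alteration and the clock time at which tissue was taken are not given in the sources used here, so hours after injection and time of day cannot be told apart. Nor is it given whether the groups of an experiment were collected at the same time of day.

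The mammalian clock is a transcriptional feedback loop with a period of about a day. BMAL1, the product of Arntl, pairs with CLOCK or NPAS2 and activates genes through E-boxes. Its targets include the Per genes and Ciart, whose products repress this activity, the REV-ERB receptors, which repress Arntl, Clock and Npas2, and Dbp, a PAR bZIP factor that acts on D-boxes. In peripheral tissues, brown fat included, Arntl and Npas2 therefore run in antiphase to Dbp, Nr1d1 and the Per genes, and Nr1d1 and Dbp peak ahead of Per2. Thyroid hormone receptors bind half-sites whose core letters are also part of the REV-ERB site.

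On GRCm38, Arntl lies at chr7:113207465-113314126 (plus strand), Clock at chr5:76209868-76304792 (minus) and Npas2 at chr1:39193731-39363236 (plus). Per1 lies at chr11:69095217-69109960 (plus), Per2 at chr1:91415982-91459324 (minus), Per3 at chr4:151003652-151044665 (minus) and Ciart at chr3:95878503-95882251 (minus). Nr1d2 lies at chr14:18204054-18239127 (minus).

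Promoter windows of 250 bases before to 50 bases after a start site (RefSeq, GRCm38.p6) were listed for 9 of the 10 genes, not for Per2, 13 windows in all. Of these, 4 are printed here because they hold matches to elements of the kind the loop is known to use. They were searched on both strands for the E-box (CACGTG), the D-box (TTATGTAA or TTACGTAA), the REV-ERB/ROR core (TAGGTCA or TGGGTCA), the cAMP element (TGACGTCA), the thyroid hormone receptor half-site (AGGTCA) and the DR4 repeat of that half-site. Capitals mark the matches. In Ciart (chr3:95882179-95882478, minus strand) all 3 matches are E-boxes, and in Per3 (chr4:151044616-151044915, minus strand) both are D-boxes. In Arntl (chr7:113207261-113207560, plus strand) the capitals are a REV-ERB/ROR core that contains a half-site. In Per1 (chr11:69098699-69098998, plus strand) they are an E-box and then a half-site on the opposite strand.
Ciart: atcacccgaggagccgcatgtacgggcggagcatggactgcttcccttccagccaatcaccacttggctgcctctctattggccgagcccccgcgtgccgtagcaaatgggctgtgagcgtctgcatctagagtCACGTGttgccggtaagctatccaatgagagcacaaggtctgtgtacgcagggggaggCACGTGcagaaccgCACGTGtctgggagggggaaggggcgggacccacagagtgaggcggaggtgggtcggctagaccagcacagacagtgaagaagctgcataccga
Per3: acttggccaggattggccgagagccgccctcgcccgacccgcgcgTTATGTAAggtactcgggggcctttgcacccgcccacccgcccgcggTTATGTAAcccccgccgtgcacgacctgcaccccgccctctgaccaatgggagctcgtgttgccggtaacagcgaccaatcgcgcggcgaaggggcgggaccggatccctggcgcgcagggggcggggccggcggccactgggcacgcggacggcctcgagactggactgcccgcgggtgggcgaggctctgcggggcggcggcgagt
Arntl: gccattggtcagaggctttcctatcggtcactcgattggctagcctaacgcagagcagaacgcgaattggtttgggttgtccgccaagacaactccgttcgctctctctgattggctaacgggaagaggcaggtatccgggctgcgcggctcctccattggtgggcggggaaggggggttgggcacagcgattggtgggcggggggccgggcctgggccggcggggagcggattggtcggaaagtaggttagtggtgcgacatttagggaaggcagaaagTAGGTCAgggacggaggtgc
Per1: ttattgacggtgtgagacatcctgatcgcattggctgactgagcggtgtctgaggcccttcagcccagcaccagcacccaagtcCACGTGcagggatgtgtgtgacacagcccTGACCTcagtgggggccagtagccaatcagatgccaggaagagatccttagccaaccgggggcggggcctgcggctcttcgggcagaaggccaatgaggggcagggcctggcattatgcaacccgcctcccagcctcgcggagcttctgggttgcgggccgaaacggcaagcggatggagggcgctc
E-boxes were found in 2 of the 9 genes, Ciart and Per1, and in 8.09% of all 27025 genes with a window (7.15% of the 32851 windows). D-boxes were found in 1 gene, Per3, and in 1.23% of all genes. The REV-ERB/ROR core was found in 1 gene, Arntl, and in 7.35% of all genes. Half-sites were found in 4 genes, Arntl, Clock, Nr1d2 and Per1, and in 18.1% of all genes. No window of these genes held the cAMP element or DR4, which 2.03% and 0.0148% of all genes held. A match is a description of these letters and was not tested for binding.

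The libraries held 7805938 to 18073627 counted reads in the hormone experiment, 8008348 to 12887313 in the temperature experiment and 7612059 to 11533900 in the diet experiment. Levels are counts-per-million (CPM), scaled within each experiment, so levels of different experiments were normalized separately. Brown adipocyte markers (7 genes) summed to 5754 to 27470 CPM in every library, and none was at 0 in any group. Skeletal muscle markers (8 genes) summed to 0.639 to 7931 CPM and varied between mice of the same group. Lymphocyte markers (7 genes) summed to 0.508 to 6.50 CPM, macrophage markers (4 genes) to 10.7 to 131.9 CPM, endothelial markers (3 genes) to 215.4 to 637.2 CPM and hemoglobin genes (4 genes) to 115.0 to 1688 CPM. Glucocorticoid-induced genes (4 genes) summed to 44.8 to 535.7 CPM. In bulk tissue, fewer cells of a type and less RNA per cell cannot be told apart. Hr, a gene long known to be induced by thyroid hormone, was 0.690 to 1.41 CPM in the WT PTU mice and 7.71 CPM or more in each of the 16 WT mice given hormone. Ucp1, the uncoupling protein of brown fat, was 4.40 ± 0.52 higher (log2 ± SE) at 4 °C in CTRL mice and 3.43 ± 0.44 higher in BATKO mice (edgeR adjusted p = 4.56e-06 and 2.22e-05).

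In the WT mice, 8 of the 10 clock genes differed from their PTU level at both 6 and 12 h, Nr1d1 at 6 h alone and Per1 at neither time, and at 24 h Per2 and Ciart were still above PTU. Arntl and Npas2 were high in the PTU mice, fell by 6 h and were high again at 24 h, while Dbp, Ciart, Per2, Per3 and Nr1d2 were low, rose by 6 h and had fallen at 24 h. At 3 h, 3 of the 10 passed the test against PTU (edgeR, adjusted p under 0.05), where 9.19% of the 13003 genes tested did. At 6 h 9 of 10 passed, against 23% of all genes, and at 12 h 8 of 10, against 25.7%. At 24 h 2 of 10 passed, against 32.7% of all genes. The median absolute log2 change over the 10 genes was 0.903, 2.41, 2.81 and 0.305 at 3, 6, 12 and 24 h, beside 0.208, 0.275, 0.272 and 0.313 over all genes tested. The 3 genes that passed at 3 h were Per2, Nr1d2 and Dbp, all higher, and Per2 no longer passed without any 1 of mice B2, B3, B5 or B11 (adjusted p up to 0.13) or with all 30 mice fitted (0.053). Nr1d1 passed at 3 h with no filter, with all 30 mice fitted and without B11, Npas2 without B11, and Per3 without B4 (adjusted p = 0.0073, 0.041, 0.015, 0.027 and 0.025). The 4 comparisons share their 4 PTU mice. Among the treated mice alone, 9 of 10 differed between the 4 times, against 27.2% of all genes, Per1 being the exception (adjusted p = 0.65).

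**Figure D1:**
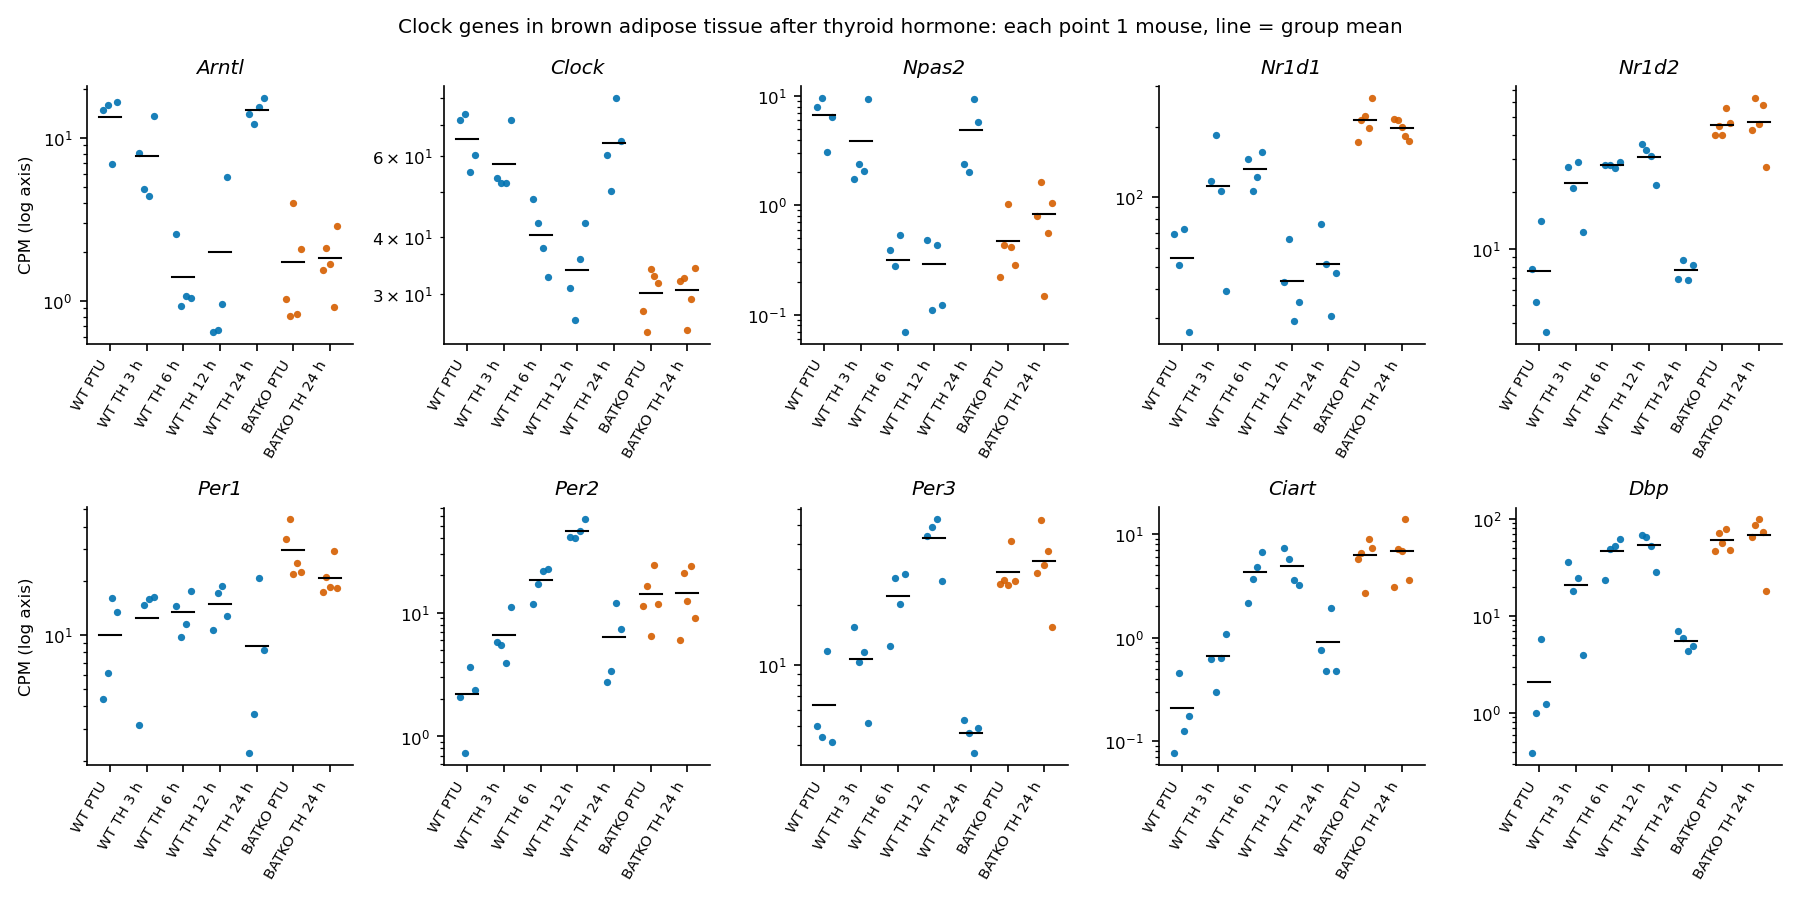
Level of each clock gene in CPM (log axis) in each mouse of the hormone experiment, in WT (blue) and BATKO (orange) groups, with the group mean as a line. Arntl and Npas2 lie high in the WT PTU and 24 h mice and low at 6 and 12 h, Dbp, Ciart, Per2, Per3 and Nr1d2 lie the other way, and both BATKO groups lie near the WT mice of 6 and 12 h in Arntl and Dbp and above them in Nr1d1.

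Arntl, the partner that the positive limb cannot do without, was at 14.7, 15.8, 6.91 and 16.5 CPM in the PTU mice. At 3 h it was at 8.11, 4.88, 4.37 and 13.6 CPM. At 6 h it was at 2.56, 0.923, 1.07 and 1.04 CPM. At 12 h it was at 0.645, 0.659, 0.958 and 5.76 CPM, the last being mouse B23. At 24 h it had returned to 13.9, 12.1, 15.5 and 17.6 CPM. The 6 h and the 12 h mice lay below every PTU mouse, a separation that 26% of all genes showed at each of these times, and the 24 h mice overlapped the PTU mice. Arntl was 3.27 ± 0.51 lower at 6 h and 2.86 ± 0.51 lower at 12 h (log2 ± SE, adjusted p = 8.89e-05 and 0.00026). Without mouse B23 the 12 h value was -4.12 (adjusted p = 3.89e-06). Its 24 h value differed from PTU by 0.14 ± 0.40 (adjusted p = 0.82).

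Npas2, which can take the place of CLOCK, moved with Arntl but from a lower level. Its counts per mouse were 49 to 106 in the PTU mice, 1 to 8 at 6 h and 1 to 6 at 12 h. The group means were 6.77 ± 2.79 CPM in the PTU mice (SD, n = 4), 0.317 ± 0.196 CPM at 6 h and 0.288 ± 0.199 CPM at 12 h. The fall was 4.36 ± 0.70 at 6 h and 4.37 ± 0.74 at 12 h on the log2 scale (adjusted p = 0.00013 and 0.00015). At 24 h the mice were spread from 2.01 to 9.37 CPM, which overlapped the PTU mice.

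Clock changed over a narrower range. Its mean was 65.3 ± 9.02 CPM in the PTU mice, 40.4 ± 6.74 CPM at 6 h, 33.9 ± 7.00 CPM at 12 h and 63.8 ± 12.4 CPM at 24 h (SD, n = 4 each). It fell to 0.612 of the PTU level at 6 h and to 0.523 at 12 h (adjusted p = 0.0036 and 0.00024). No mouse at 6 or 12 h reached the lowest PTU mouse, at 55.2 CPM.

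Nr1d1, which encodes REV-ERBα, was high at 6 h and back in the PTU range at 12 h. It was at 26.1 to 72.5 CPM in the PTU mice, at 117.0, 185.0, 106.0 and 39.3 CPM at 3 h, at 146.0, 106.0, 122.0 and 156.0 CPM at 6 h, and at 42.9, 65.8, 29.2 and 35.3 CPM at 12 h. All 4 mice at 6 h lay above all PTU mice and above all 12 h mice. It was 1.26 ± 0.36 higher at 6 h than in PTU mice (adjusted p = 0.015), and the call was lost without mouse B5 (adjusted p = 0.0503). Between 6 and 12 h its log2 level decreased by 1.59 ± 0.37 (adjusted p = 0.025). This fall did not pass without any 1 of mice B12, B17, B21 or B23 (adjusted p up to 0.089). At its 3′ end, 8.55% of the exonic bases of Nr1d1 (chr11:98767932-98775333, minus strand, GRCm38) overlap Thra, the thyroid hormone receptor α gene, on the plus strand, and whether reads were counted by strand is not given in the sources used here. Thra was at -0.40 ± 0.12 against PTU at 6 h (adjusted p = 0.020), opposite to Nr1d1. At 12 h Thra was at -0.57 ± 0.12 (adjusted p = 0.0016), the same sign as Nr1d1 at -0.33 ± 0.36 (adjusted p = 0.55), and from 6 to 12 h Thra was at -0.17 ± 0.12 (adjusted p = 0.49).

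Nr1d2, which encodes REV-ERBβ, was higher at 3 h and stayed high to 12 h. It was at 3.60 to 14.0 CPM in the PTU mice, and at 12.3 to 28.7 CPM at 3 h. It was at 26.7 to 29.0 CPM at 6 h and at 21.8 to 35.9 CPM at 12 h, and it had returned to 6.84 to 8.72 CPM by 24 h. The 6 h and 12 h mice lay above all PTU and all 24 h mice. It was 1.49 ± 0.28, 1.82 ± 0.28 and 1.99 ± 0.29 higher than in PTU mice at 3, 6 and 12 h (adjusted p = 0.0019, 9.23e-05 and 2.33e-05). Unlike Nr1d1, its 6 to 12 h difference was 0.16 ± 0.26 (adjusted p = 0.78), and the difference between the 2 genes was not tested.

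Per2 rose at each time up to 12 h. Its values were 2.07, 0.730, 3.61 and 2.37 CPM in the PTU mice, 5.82, 5.48, 3.89 and 11.2 CPM at 3 h, and 11.8, 17.1, 21.8 and 22.7 CPM at 6 h. At 12 h it was at 40.6, 40.1, 45.4 and 56.8 CPM, and at 24 h at 2.76, 3.35, 12.0 and 7.42 CPM. No mouse of a later time up to 12 h overlapped the PTU mice, and the 12 h mice lay above all other WT mice. It was 20.2-fold higher at 12 h than in PTU mice (log2 4.33 ± 0.42, adjusted p = 1.83e-07). From 6 to 12 h it was 1.34 ± 0.34 higher (adjusted p = 0.039), a call lost when any 1 of the 8 mice was left out and with DESeq2. At 24 h it was still 1.52 ± 0.44 above PTU (adjusted p = 0.011), which was lost without mouse B27 (adjusted p = 0.077).

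Per3 followed Per2 with a smaller range. Its means were 6.31 ± 3.63 CPM in the PTU mice, 22.1 ± 7.32 CPM at 6 h, 43.2 ± 11.9 CPM at 12 h and 4.61 ± 0.716 CPM at 24 h (SD, n = 4 each). It was 1.76 ± 0.33 higher at 6 h and 2.76 ± 0.33 higher at 12 h (adjusted p = 0.00068 and 3.11e-06). From 6 to 12 h it was at 1.00 ± 0.30 (adjusted p = 0.079), which passed with DESeq2, with no filter on low counts, without mice B4 and B11, and without mouse B23 (adjusted p = 0.039, 0.0045, 0.019 and 0.044). Between 12 and 24 h its log2 level decreased by 3.24 ± 0.35 (adjusted p = 1.48e-05), with all 24 h mice below all 12 h mice.

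Per1, the member of its family that also answers to cAMP and glucocorticoids, did not pass in any of these comparisons with all mice. It was at 4.37 to 16.1 CPM in the PTU mice, 3.15 to 16.3 CPM at 3 h, 9.69 to 17.6 CPM at 6 h, 10.6 to 18.8 CPM at 12 h and 2.19 to 20.8 CPM at 24 h. The groups overlapped at every time. Its largest estimate against PTU was 0.56 ± 0.52 at 12 h (adjusted p = 0.47). From 12 to 24 h it was at -0.74 (adjusted p = 0.39), and without mouse B27 at -1.60, which passed (adjusted p = 0.048).

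Ciart, which represses the BMAL1 complex, was near the limit of counting in the PTU mice, with 1, 5, 2 and 2 counts. Its counts rose to 28 to 97 at 6 h and 26 to 90 at 12 h, and were 5 to 26 at 24 h. The 6 h and 12 h mice lay well above the PTU mice in CPM. At 24 h the lowest mouse, at 0.479 CPM, and the highest PTU mouse, at 0.457 CPM, both had 5 counts, so that their order rests on the scaling between libraries, and 29% of all genes had no overlap at 24 h. The fitted difference was 4.39 ± 0.56 at 6 h, 4.60 ± 0.56 at 12 h and 2.18 ± 0.68 at 24 h (log2 ± SE, adjusted p = 9.94e-06, 3.10e-06 and 0.017), on a PTU group of 10 counts in all. Without PTU mouse B3, the one with 5 counts, these values were 5.01, 5.22 and 2.81. The 24 h call was lost without any 1 of mice B2, B4 or B27 (adjusted p up to 0.13), with a value of 1.48 without B27.

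Dbp, the PAR bZIP output factor, was low in the PTU mice and high from 3 to 12 h. Its values were 0.383, 1.00, 5.77 and 1.23 CPM in the PTU mice, 36.0, 18.2, 24.5 and 3.92 CPM at 3 h, and 23.3, 48.9, 52.3 and 62.2 CPM at 6 h. At 12 h it was at 69.2, 65.2, 52.4 and 28.3 CPM, and at 24 h at 7.05, 5.94, 4.39 and 4.95 CPM. It was 8.94-fold higher than in PTU mice at 3 h, 20.5-fold at 6 h and 24.0-fold at 12 h (log2 3.16, 4.36 and 4.59, adjusted p = 0.0016, 2.20e-05 and 7.13e-06). At 24 h the estimate was 1.29 ± 0.64 (log2, adjusted p = 0.13). Without mouse B4, whose Dbp level was the highest of the PTU mice, the log2 values were 4.54, 5.74 and 5.97 at 3, 6 and 12 h, and the 24 h value passed (2.68, adjusted p = 0.0084). The 24 h value also passed with all mice and no filter on low counts (1.29, adjusted p = 0.030). At its 3′ end, 18.0% of the exonic bases of Dbp (chr7:45705088-45710203, plus strand) overlap Sphk2 on the minus strand. Sphk2 was also higher than in PTU mice at all 4 times, by 0.99 ± 0.19, 0.81 ± 0.19, 0.67 ± 0.19 and 0.91 ± 0.19 at 3, 6, 12 and 24 h (adjusted p = 0.0018, 0.0037, 0.014 and 0.00089). Its adjusted p between the treated times was 0.49, and that of Dbp 0.00058. The part of the overlap in either was not tested.

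From 12 to 24 h, 8 of 10 genes passed, against 11.4% of all genes. Arntl, Clock and Npas2 rose by 3.00 ± 0.51, 0.90 ± 0.17 and 3.94 ± 0.76 on the log2 scale, and Arntl by 4.26 without mouse B23. Per2, Per3, Ciart, Nr1d2 and Dbp fell by 2.82 ± 0.37, 3.24 ± 0.35, 2.42 ± 0.44, 2.01 ± 0.29 and 3.29 ± 0.54, and Ciart fell by 3.11 without mouse B27. For each of these 8 genes the 12 h and the 24 h mice did not overlap, as for 13.7% of all genes. Between 6 and 12 h only Per2 and Nr1d1 passed, 2 of 10 against 2.95% of all genes, Per2 upward and Nr1d1 downward. Without any 1 of mice B12, B17, B21 or B23 neither passed, and B12 had the skeletal muscle marker sum of 1598 CPM. Skeletal muscle markers were themselves different between the treated times, 8 of 8 by the same test. Their sums were 252 to 1598 CPM at 6 h, 3.49 to 286 CPM at 12 h and 254 to 1088 CPM at 24 h, and without the 2 WT mice over 1000 CPM the same 8 clock genes passed from 12 to 24 h. Hr was 0.97 ± 0.23 higher at 24 than at 12 h (adjusted p = 0.010). Of the 4 glucocorticoid-induced genes, Fkbp5, Tsc22d3 and Zbtb16 were 1.59 ± 0.42, 1.28 ± 0.29 and 1.91 ± 0.62 above PTU at 12 h (adjusted p = 0.0077, 0.0024 and 0.027). Sgk1 was at -0.33 ± 0.26 (adjusted p = 0.38). The sums of the 4 genes overlapped, at 85.9 to 119.7 CPM in the PTU mice and 105.9 to 166.7 CPM at 12 h. Tsc22d3 differed between the treated times (adjusted p = 0.010). Other lists stood apart from PTU at some of the times. Brown adipocyte markers summed to 14050 to 15740 CPM in the PTU mice and 17530 to 20320 CPM at 6 h, without overlap, and overlapped PTU at the other times. Endothelial markers summed to 285 to 306 CPM in the PTU mice. They lay at 314 to 330 CPM at 3 h and 215 to 273 CPM at 12 h, without overlap, and overlapped PTU at 6 and 24 h. Lymphocyte markers summed to 1.32 to 2.83 CPM in the PTU mice. At 6 h they summed to 0.869 to 1.29 CPM and at 24 h to 0.595 to 1.24 CPM, without overlap, and they overlapped PTU at 3 and 12 h. The part of these lists in the clock gene levels was not tested.

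Single WT mice stood apart from their group across several genes. Mouse B11 of the 3 h group had 13.6 CPM of Arntl and 9.42 CPM of Npas2, both within the range of the PTU mice, and 3.92 CPM of Dbp against 18.2 to 36.0 CPM in the other 3. Its Per2 level of 11.2 CPM was the highest of the 3 h mice. Its Hr level of 7.71 CPM lay above every PTU mouse, and its hemoglobin sum of 1243 CPM was above the 197 to 339 CPM of the others, as was its macrophage marker sum, at 45.1 CPM against 20.6 to 22.2 CPM. Their part in its clock gene levels was not tested. Without B11 and B4, 6 of 10 genes passed at 3 h rather than 3, against 7.82% of all genes: Arntl and Npas2 lower, and Per3, Nr1d1, Nr1d2 and Dbp higher. Per2 no longer passed there (adjusted p = 0.065). B11 and B4 were left out because they stood apart in these same genes, so this count is a description. Mouse B4 of the PTU group had 5.77 CPM of Dbp and 11.7 CPM of Per3, the highest of that group. The residual spread within groups (SD of log2 CPM) was 0.976 for Dbp, 0.923 for Per1, 0.851 for Npas2 and 0.801 for Arntl, at or above the 98.5th percentile of the 13003 genes, and 0.251 for Clock, near the median of 0.245.

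Within groups, Arntl and Dbp were negatively correlated. Over the 20 WT mice, the correlation of log2 CPM after removing group means was -0.68 for Arntl and Dbp and 0.88 for Per3 and Dbp, a description over mice that share libraries and depth. Mice B4, B11, B12 and B23 each lay at opposite ends of their group in Arntl and Dbp. Among the other PTU mice both genes rose together, and among the other 12 h mice they ran in opposite directions. The correlation without B4, B11, B12 and B23 was not computed. The ratio of Dbp to Arntl reads within a library needs no scaling between libraries. Its log2 value was -3.25 ± 2.09 in the PTU mice and 1.18 ± 1.99 in the 3 h mice (SD, n = 4 each). It was 5.06 ± 1.27 and 5.29 ± 2.05 in the 6 h and 12 h mice, and -1.41 ± 0.48 in the 24 h mice. The lowest mouse at 6 and 12 h, at 2.29, lay above the highest PTU mouse, at -0.26, and the highest 24 h mouse, at -0.98.

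**Figure D2:**
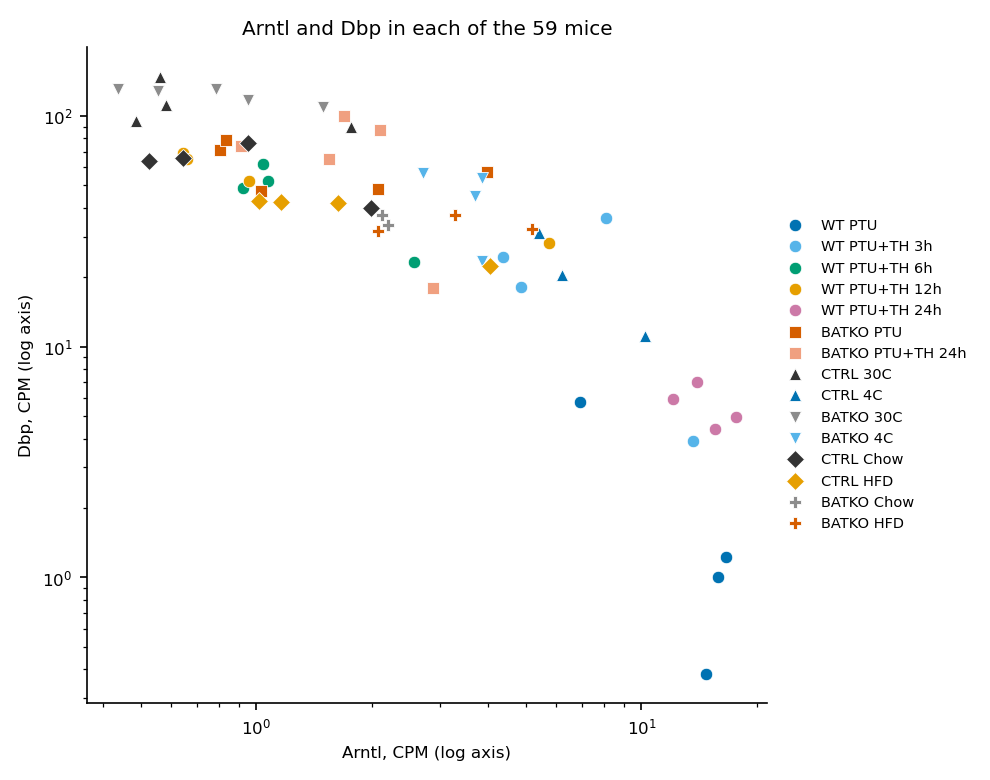
Arntl against Dbp in CPM (both axes log) for each of the 59 mice, by group, with levels scaled within each experiment. WT PTU, WT 24 h and the 3 h mouse B11 lie at the lower right (Arntl high, Dbp low), the 30 °C mice at the upper left, and the CTRL mice at 4 °C between them.

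The genes whose level over the 20 WT mice was most like that of Arntl were Dtx4, Grk5, Prr5, Rbbp8 and Zfp740, with Pearson correlations of 0.93, 0.89, 0.88, 0.88 and 0.87 among 13003 genes. Dtx4 kept a high value in the other experiments (0.89 over 16 mice and 0.67 over 13), whereas that of Grk5 was -0.54 and 0.14. Most like Dbp were Tef, Angptl2, Timp3, Dtx3l and Pank1, with 0.96, 0.93, 0.88, 0.88 and 0.88. Tef, which encodes another PAR bZIP factor, had 0.64 and 0.87 in the temperature and diet experiments, and Angptl2 had 0.89 and 0.83. Timp3 had 0.78 and 0.61, Dtx3l -0.26 and 0.15, and Pank1 -0.65 and 0.44.

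Of 19 further clock genes, 18 were tested in the WT mice. At 3 h 1 rose and 3 fell, at 6 h 4 rose and 4 fell, at 12 h 8 rose and 2 fell, and at 24 h 5 rose and 2 fell. These were 22.2, 44.4, 55.6 and 38.9% of those tested, beside 9.19, 23, 25.7 and 32.7% of all genes, so that the 24 h share was close to that of all genes. Tef was 1.47 ± 0.28, 2.37 ± 0.28 and 2.74 ± 0.28 higher at 3, 6 and 12 h (log2 ± SE, adjusted p = 0.0017, 4.49e-06 and 4.15e-07). Usp2, a ubiquitin protease gene under clock control, was 2.67 ± 0.34 and 3.39 ± 0.35 higher at 6 and 12 h. Nfil3, which opposes Dbp on D-boxes, was 2.70 ± 0.48 lower at 6 h (adjusted p = 0.00041). From 6 to 12 h Nampt, a gene of NAD synthesis, Wee1 and Hlf rose, by 0.83 ± 0.11, 1.91 ± 0.27 and 1.26 ± 0.25 (adjusted p = 0.00040, 0.0012 and 0.0095), and none fell, 16.7% of those tested beside 2.95% of all genes. From 12 to 24 h none rose and 7 fell (38.9% beside 11.4%), led by Tef, Hlf and Usp2, at -2.19 ± 0.28, -1.63 ± 0.25 and -2.01 ± 0.32. At 24 h, Bhlhe40, another repressor of the loop, was 1.46 ± 0.31 above PTU (adjusted p = 0.0010).

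In BATKO mice given hormone for 24 h, none of the 10 genes passed against BATKO PTU (edgeR). None had an unadjusted p under 0.05, DESeq2 called none, and the share of all 14178 genes called was 0%. Arntl was at 0.804 to 3.97 CPM in the 5 PTU mice and at 0.910 to 2.87 CPM in the 5 hormone mice. Dbp was at 47.3 to 79.1 CPM and at 18.0 to 99.6 CPM. The groups overlapped for all 10 genes. Estimates ran from -0.50 ± 0.39 for Per1 to 0.78 ± 0.66 for Npas2 (log2 ± SE). Hr was at 0.50 ± 0.39 in the same comparison (edgeR adjusted p = 0.96). The BATKO minus WT difference in its 24 h response was -4.07 ± 0.59 (adjusted p = 4.59e-05). BATKO mice were sampled at 24 h only, a time at which 8 of the 10 genes did not pass in WT mice either. The difference between the BATKO and the WT 24 h response did not pass for any of the 10 (edgeR), against 12.3% of all genes. There, 2 genes had an unadjusted p under 0.05, Per2 (-1.49 ± 0.63) and Ciart (-2.04 ± 0.90), and DESeq2 called none. Without mouse B4, Dbp passed for this difference (-2.50, adjusted p = 0.046). Of the further clock genes none passed within BATKO (2 with an unadjusted p under 0.05), and Bhlhe40 and Rora passed for the difference of responses (-1.47 ± 0.38 and 0.62 ± 0.18, adjusted p = 0.0098 and 0.023).

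Under PTU, BATKO and WT mice differed in all 10 genes, against 70.3% of all genes, so a difference between these groups was the rule in the table. Arntl was at 0.804 to 3.97 CPM in BATKO and 6.91 to 16.5 CPM in WT mice, Npas2 at 0.220 to 1.02 and 3.10 to 9.68 CPM, and Clock at 24.9 to 34.0 and 55.2 to 74.0 CPM. Dbp was 4.75 ± 0.59 higher on the log2 scale in BATKO mice, Ciart 30.2-fold higher, Per2 6.19-fold, Nr1d2 5.85-fold, Per3 4.49-fold, Nr1d1 3.94-fold and Per1 2.93-fold (adjusted p of 0.0024 or less). For none of the 10 genes did the groups overlap, as for 59.8% of all genes. The fold of Ciart rests on 10 counts in the WT group. The log2 value of Dbp was 6.11 without WT mouse B4, and that of Ciart was 4.92, or 5.52 without WT mouse B3. The log2 Dbp to Arntl ratio was 5.35 ± 1.17 in the BATKO PTU mice (SD, n = 5), beside 5.06 ± 1.27 and 5.29 ± 2.05 in the WT mice at 6 and 12 h. The log2 Nr1d1 to Per2 ratio was 4.05 ± 0.80 in the BATKO PTU mice, beside 2.88 ± 0.51 and -0.13 ± 0.66 in the WT mice at 6 and 12 h and 4.70 ± 1.10 in the WT PTU mice. In the WT mice at 3 and 24 h this ratio was 3.99 ± 1.48 and 3.17 ± 1.49. Nr1d1 was at 173.5 to 268.2 CPM in BATKO PTU mice, above all WT mice at 6 and 12 h. BATKO libraries of this experiment were deeper, at 13593987 to 18073627 reads against 7805938 to 14615534 in WT mice. Ucp1 was 1.99 ± 0.23 lower in BATKO PTU mice (adjusted p = 5.72e-09). Brown adipocyte markers summed to 9836 to 11810 CPM in BATKO and 14050 to 15740 CPM in WT PTU mice, and endothelial markers to 366 to 412 and 285 to 306 CPM, both without overlap. Of the glucocorticoid-induced genes, Fkbp5 and Tsc22d3 were higher in BATKO PTU mice (1.97 ± 0.51 and 0.73 ± 0.29, adjusted p = 0.0012 and 0.023) and Sgk1 lower (-0.87 ± 0.30, adjusted p = 0.011). Their part in the clock gene differences was not tested. Genotype, cohort and time of collection cannot be told apart here.

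Cold went with higher Arntl and Clock and lower Dbp and Per genes in CTRL mice. In CTRL mice, 7 of the 9 genes tested passed between 4 and 30 °C, against 49.1% of the 13267 genes. Npas2 was too low to be tested in this experiment, with 2 to 33 counts per mouse. The direction was opposite to that of the 6 and 12 h hormone mice against PTU for Arntl, Clock, Per2, Per3, Nr1d2 and Dbp. Arntl was at 5.42, 10.2 and 6.23 CPM at 4 °C and at 1.76, 0.560, 0.582 and 0.486 CPM at 30 °C. It was 8.39-fold higher at 4 °C (log2 3.07 ± 0.42, adjusted p = 1.81e-05). Without the 30 °C mouse 19 the log2 value was 3.71. Clock was 1.77-fold higher (0.82 ± 0.18, adjusted p = 0.0012), and for neither gene did the groups overlap, as for 50.4% of all genes.

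Dbp was at 31.0, 11.2 and 20.5 CPM in CTRL mice at 4 °C and at 89.6, 148.0, 111.0 and 95.3 CPM at 30 °C. It fell by 2.41 ± 0.32 on the log2 scale (adjusted p = 1.50e-05), with every cold mouse below every 30 °C mouse. Per3 was at 17.4, 6.14 and 13.3 CPM at 4 °C and 35.4 to 50.6 CPM at 30 °C (-1.81 ± 0.26, adjusted p = 3.71e-05). Per1 was at 9.83 to 15.8 CPM at 4 °C and 27.6 to 43.6 CPM at 30 °C (-1.49 ± 0.40, adjusted p = 0.0059). Per2 and Nr1d2 fell by 1.25 ± 0.29 and 1.26 ± 0.28 (adjusted p = 0.0022 and 0.0013). Nr1d1 and Ciart did not pass, at -0.51 ± 0.28 and -0.35 ± 0.34, and their groups overlapped.

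**Figure D3:**
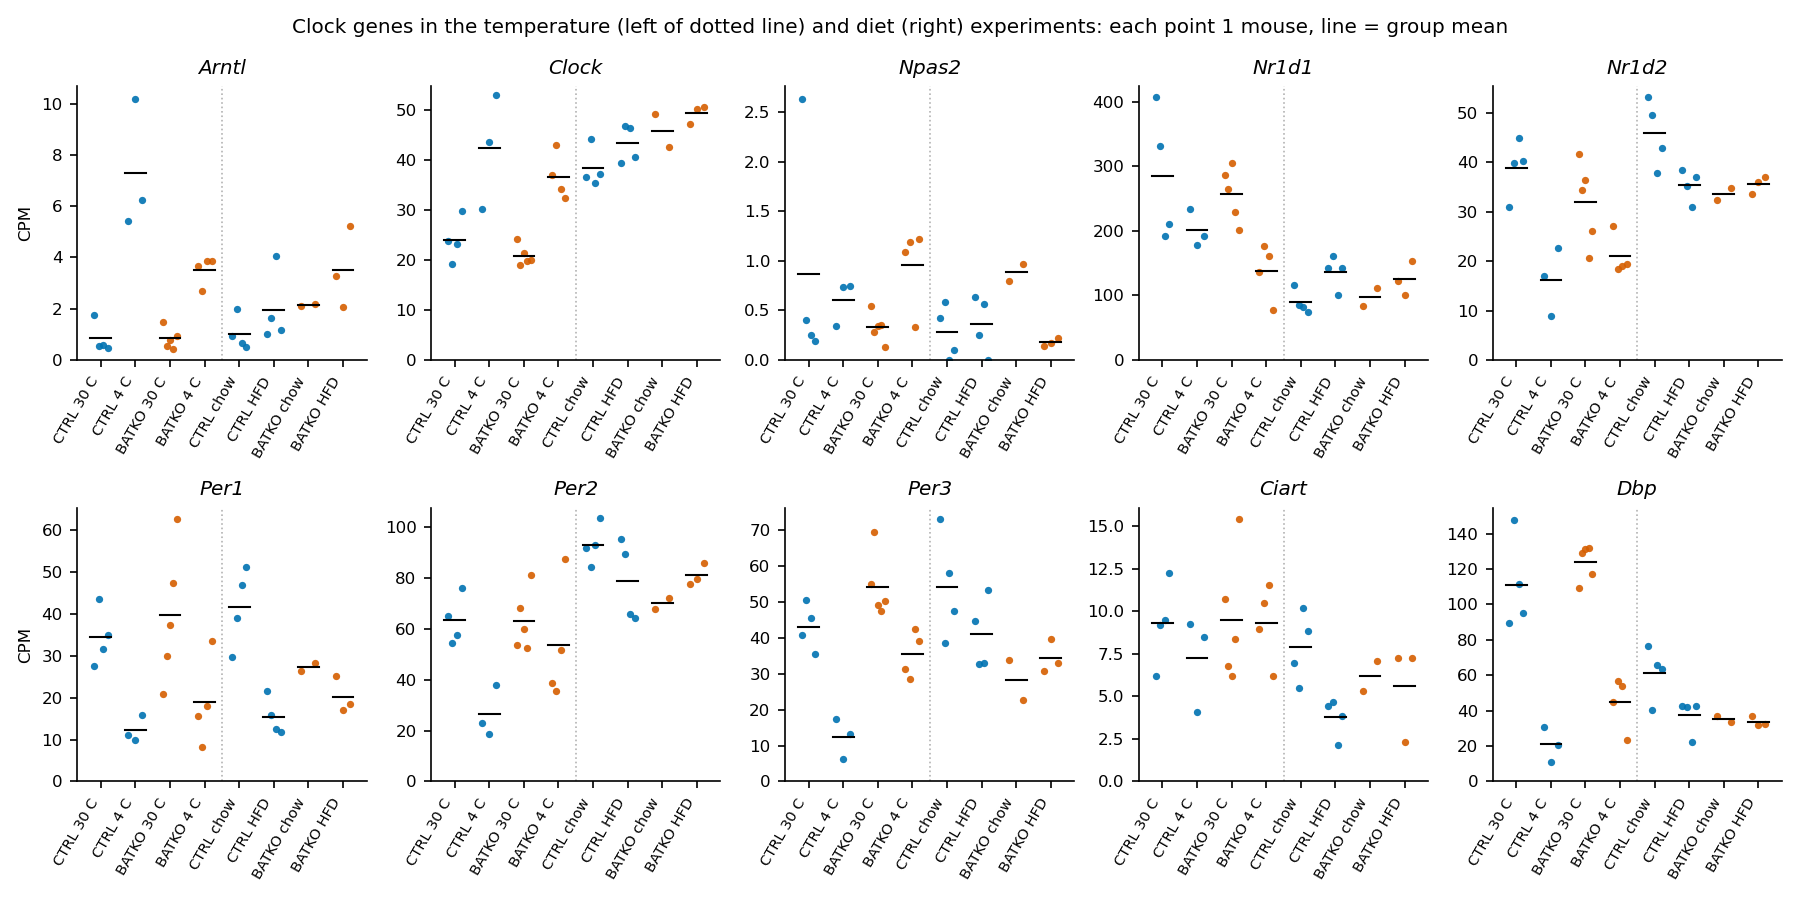
Level of each clock gene in CPM in each mouse of the temperature experiment (left of the dotted line) and the diet experiment (right), in CTRL (blue) and BATKO (orange) mice, with the group mean as a line. Arntl is higher and Dbp lower at 4 °C than at 30 °C in both genotypes, and Per1 is lower on HFD than on chow in CTRL mice.

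In BATKO mice, 6 of the 9 genes passed between 4 and 30 °C, against 40.3% of all genes. Arntl was at 2.71 to 3.86 CPM at 4 °C and 0.436 to 1.49 CPM at 30 °C (log2 2.03 ± 0.37, adjusted p = 0.00046). Clock was 0.81 ± 0.16 higher. Dbp was at 23.5 to 56.6 CPM at 4 °C and 109.0 to 132.0 CPM at 30 °C (-1.47 ± 0.27, adjusted p = 0.00041). Nr1d1, Per1 and Per3 fell by 0.90 ± 0.25, 1.07 ± 0.34 and 0.62 ± 0.22 (adjusted p = 0.0079, 0.020 and 0.032). Thra, whose exons overlap those of Nr1d1, was at -0.60 ± 0.19 (adjusted p = 0.019), the same sign as Nr1d1. The part of the overlap was not tested. For Per1 the groups overlapped, at 8.23 to 33.6 CPM and 20.8 to 62.6 CPM. The calls of Per1 and Per3 were lost without the mice over 1000 CPM of skeletal muscle markers, which were 4 BATKO mice and CTRL 30 °C mice 20 and 21. The call of Per1 was also lost with the 2 BATKO groups alone in the fit (adjusted p = 0.0501) and without any 1 of mice 7, 8 and 17. That of Per3 was lost without any 1 of mice 7, 8 and 14 (adjusted p up to 0.20 for Per1 and 0.21 for Per3). Nr1d2 was just short of the threshold (-0.61 ± 0.24, adjusted p = 0.051) and passed in 9 of 17 alternatives, among them DESeq2 and a fit of these 2 groups alone (adjusted p = 0.027 and 0.036). Per2 was at -0.24 ± 0.25 and passed without 4 °C mouse 12 (-0.59, adjusted p = 0.044).

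The difference in cold response between BATKO and CTRL mice passed for none of the 9 genes by edgeR, against 1.12% of all genes. Unadjusted p was under 0.05 for 3, Per2, Per3 and Dbp, and DESeq2 called Per3. Per3 had the lowest adjusted p (1.19 ± 0.33, 0.083). At 4 °C Per3 was higher in BATKO mice, at 28.5 to 42.5 CPM against 6.14 to 17.4 CPM (log2 1.52 ± 0.26, adjusted p = 0.011), 1 of 9 genes against 2.16% of all genes. Unadjusted p was under 0.05 for 4 genes, Per3, Per2, Dbp and Arntl. The genotypes did not overlap for 3, as for 13.2% of all genes: Per3, Arntl, at 2.71 to 3.86 against 5.42 to 10.2 CPM (-1.04 ± 0.38, adjusted p = 0.17), and Nr1d1, at 77.8 to 176.0 against 177.9 to 233.2 CPM (-0.55 ± 0.27, adjusted p = 0.33). The call of Per3 was lost when only these 2 groups were fitted and without the mice high in muscle markers (adjusted p up to 0.064). Per2 and Dbp, at 1.01 ± 0.29 and 1.09 ± 0.31, did not pass in the edgeR fit reported (adjusted p = 0.083 and 0.074). Both passed with DESeq2, and with edgeR Dbp passed with no filter on low counts and Per2 without CTRL mouse 5 (adjusted p = 0.042 and 0.033). At 30 °C none of the 9 genes passed (edgeR), none had an unadjusted p under 0.05 and DESeq2 called none, against 0.00754% of all genes.

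Of the 18 further clock genes tested, 2 rose and 8 fell in the cold in CTRL mice, and 1 rose and 5 fell in BATKO mice. These were 55.6 and 33.3% of those tested, beside 49.1 and 40.3% of all genes, near the share of all genes in CTRL mice and below it in BATKO mice. Wee1, a cell cycle kinase gene under clock control, was 3.53 ± 0.32 lower in CTRL and 2.08 ± 0.24 lower in BATKO mice (adjusted p = 3.97e-07 and 8.67e-06). Hlf, the PAR bZIP gene related to Dbp, was 1.96 ± 0.20 lower in CTRL mice (adjusted p = 1.36e-06), and it alone of this list passed for the difference of responses between genotypes (1.35 ± 0.26, adjusted p = 0.027). Hemoglobin genes summed to 756 to 1688 CPM at 4 °C and 175 to 488 CPM at 30 °C over both genotypes. Brown adipocyte markers summed to 16460 to 27470 CPM at 4 °C and 5754 to 7148 CPM at 30 °C. Lymphocyte markers summed to 0.966 to 1.35 CPM at 4 °C and 2.04 to 4.71 CPM at 30 °C in CTRL mice. Tsc22d3 fell in the cold in both genotypes (-0.79 ± 0.19 and -0.45 ± 0.17, adjusted p = 0.0029 and 0.043), and Fkbp5 rose in BATKO mice (0.80 ± 0.30, adjusted p = 0.043). The part of any of these in the clock gene differences was not tested. Skeletal muscle markers were above 1000 CPM in 2 of 4 CTRL and 2 of 5 BATKO mice at 30 °C, and without these and the other mice over that level the same 7 genes passed in CTRL mice.

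Diet went with fewer changes. In CTRL mice on HFD, 1 of the 9 genes passed, Per1, against 3.94% of the 12932 genes. Per1 was at 21.6, 15.9, 12.6 and 11.7 CPM on HFD and at 29.7, 39.0, 46.8 and 51.2 CPM on chow. The groups did not overlap for Per1 and Ciart, 2 of 9 genes, as for 10.7% of all genes. It fell by 1.43 ± 0.20 on the log2 scale (adjusted p = 0.0021). Ciart, Dbp and Nr1d2 were at -1.07 ± 0.34, -0.72 ± 0.21 and -0.37 ± 0.11, and Nr1d1 at 0.62 ± 0.18 (adjusted p of 0.065 to 0.088). With DESeq2, 4 genes passed: Per1, Ciart and Dbp downward and Nr1d1 upward, as they did with no filter. Single mice left out also brought Nr1d1, Nr1d2 or Dbp past the threshold (adjusted p of 0.030 to 0.045). Glucocorticoid-induced genes, which share an inducer with Per1, summed to 327 to 373 CPM on HFD and 450 to 536 CPM on chow in these mice, without overlap. Of the 4, Sgk1 fell (-0.98 ± 0.13, adjusted p = 0.0012) and Zbtb16 rose (1.46 ± 0.30, adjusted p = 0.018). Lymphocyte markers summed to 0.508 to 1.01 CPM on HFD and 2.12 to 3.89 CPM on chow, and macrophage markers to 51.6 to 131.9 and 35.3 to 47.0 CPM, both without overlap. The part of these lists in the Per1 level was not tested.

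Arntl was at 1.02, 1.63, 4.04 and 1.16 CPM on HFD and 0.953, 1.99, 0.645 and 0.525 CPM on chow in CTRL mice (0.96 ± 0.51, adjusted p = 0.29). These groups overlapped, and 5 to 36 counts lay behind each value. Per2, the highest of the Per genes on this diet in CPM, was at 64.4 to 95.3 CPM on HFD and 84.2 to 103.0 CPM on chow (-0.24 ± 0.13, adjusted p = 0.29).

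In BATKO mice no gene passed between HFD and chow (edgeR), none had an unadjusted p under 0.05 and DESeq2 called none, against 0.0696% of all genes. The chow group had 2 mice. Per1 was at 25.1, 17.1 and 18.5 CPM on HFD and 26.5 and 28.3 CPM on chow (-0.45 ± 0.26). The groups did not overlap for Per1 and Per2, 2 of 9 genes, as for 36.4% of all genes. The difference in diet response between genotypes passed for none of the 9 genes (edgeR, 2 with an unadjusted p under 0.05, none with DESeq2, 0% of all genes called), and the estimate for Per1 was 0.98 ± 0.33 (adjusted p = 0.73, or 0.038 with no filter). Between BATKO and CTRL mice on chow none of the 9 genes passed (edgeR, 5 with an unadjusted p under 0.05, none with DESeq2, 0% of all genes called). For 6 of the 9, Arntl, Dbp, Nr1d2, Per1, Per2 and Per3, the 2 BATKO mice did not overlap the 4 CTRL mice, as for 17.7% of all genes. Per3 was at 22.7 and 33.8 CPM in BATKO mice and 38.4 to 73.0 CPM in CTRL mice on chow (-0.94 ± 0.26, adjusted p = 0.32), and Dbp at 33.6 and 37.1 CPM and 40.1 to 76.3 CPM (-0.80 ± 0.26, adjusted p = 0.40). With no filter on low counts both passed (adjusted p = 0.0019 and 0.012). On HFD none of the 9 passed between genotypes (edgeR), none had an unadjusted p under 0.05 and DESeq2 called none, against 0% of all genes, and Clock alone did not overlap, as for 6.01% of all genes. Of the 19 further clock genes, Wee1 alone passed in CTRL mice (-0.66 ± 0.13, adjusted p = 0.017), and none passed in the other diet comparisons, where 1 to 5 had an unadjusted p under 0.05.

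**Figure D4:**
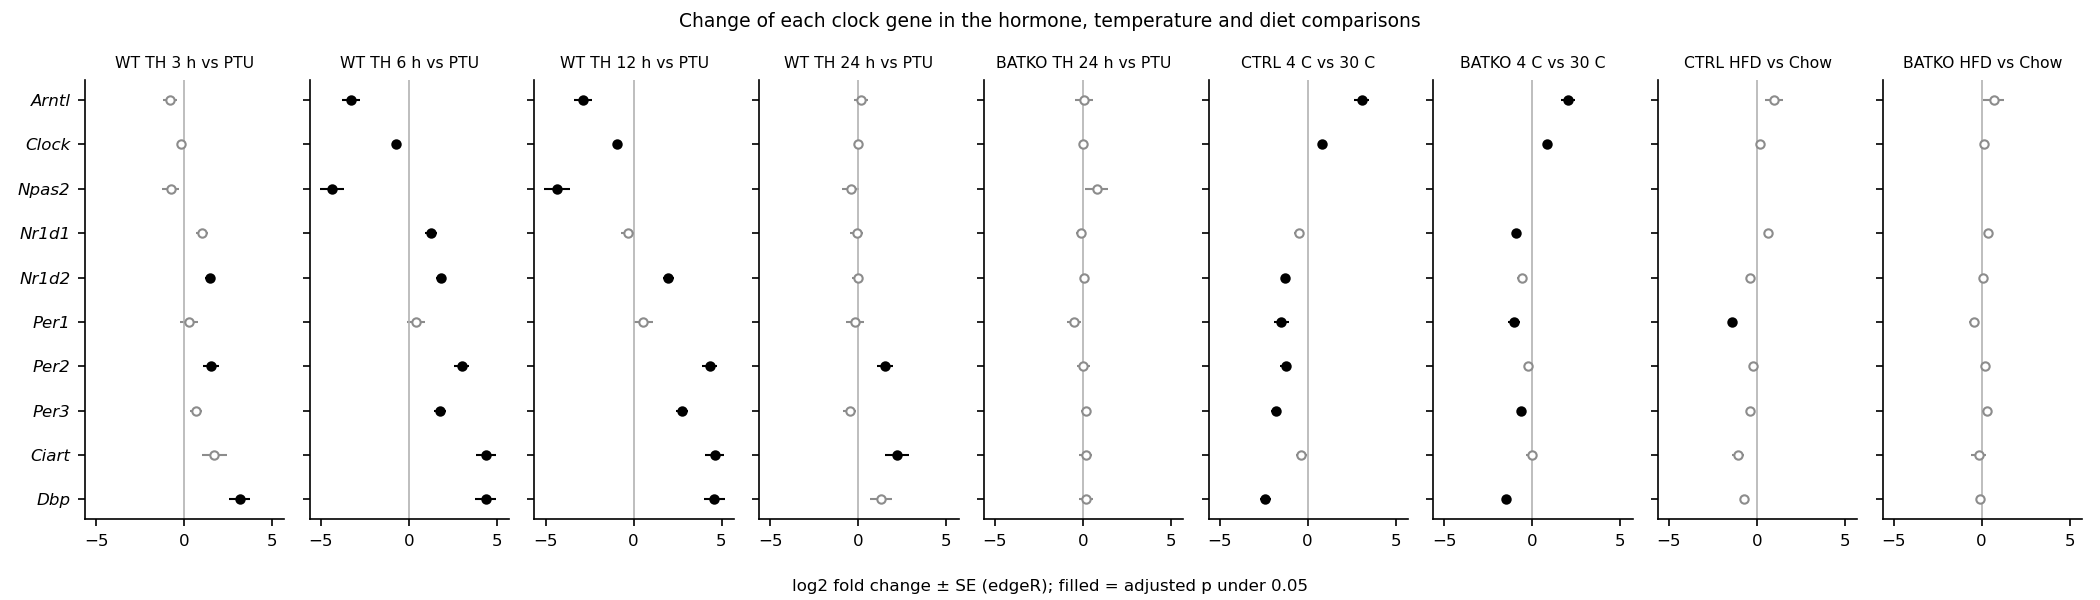
Log2 fold change of each clock gene with its standard error in 9 comparisons, filled where the edgeR adjusted p was under 0.05 and open where not, with untested genes left out. Arntl, Clock and Npas2 lie left of 0 and Dbp, Ciart and Per2 right of 0 at 6 and 12 h of hormone, Arntl and Clock lie right and Dbp left of 0 in the cold, and in BATKO mice all 10 genes of the hormone comparison are open.

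The Dbp to Arntl ratio was lower at 4 °C than at 30 °C in every mouse of both genotypes. Its log2 value was 7.14 ± 1.02 in CTRL mice at 30 °C (SD, n = 4) and 1.45 ± 1.21 at 4 °C (n = 3), and 7.24 ± 0.75 (n = 5) and 3.58 ± 0.74 (n = 4) in BATKO mice. In the diet experiment it was 5.97 ± 1.14 on chow and 4.38 ± 1.32 on HFD in CTRL mice (n = 4 each), and 3.99 ± 0.13 (n = 2) and 3.34 ± 0.66 (n = 3) in BATKO mice. The diet groups overlapped within each genotype and were not tested. Per length of exon, Nr1d1 was the most abundant of the 10 genes in the CTRL mice of all 4 groups, at 29.0 to 92.9 CPM per kb (group means). In the WT PTU mice it led at 17.7 ± 6.90 CPM per kb ahead of Clock at 4.76 ± 0.657, and Ciart was lowest at 0.0924 ± 0.0751 (SD, n = 4). At 12 h Dbp led at 18.0 ± 6.16 CPM per kb, next to Nr1d1 at 14.1 ± 5.21, which do not differ beyond their spread. Whether time of day at collection moved with temperature, diet or hours after injection was not tested, since no label carries it.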

How the data were processed

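Brown adipose tissue of 59 mice was profiled by total RNA sequencing (SENSE kit, NextSeq 500) in 3 experiments. The deposited values are raw read counts per gene, which the authors made by alignment to GRCm38 (mm10) with Bowtie2 2.3.2.2, removal of low-quality alignments and htseq-count. The annotation and strand setting are not given in the sources used here. Groups came from the sample labels. Counts were fitted with edgeR 4.0.16 (quasi-likelihood, TMM, R 4.3.3) within each experiment, over genes with a mean normalized count above 10, with Benjamini-Hochberg adjustment over all genes tested and a threshold of 0.05. The fits held 20 WT hormone mice, all 30 hormone mice for BATKO comparisons, 16 temperature mice and 13 diet mice, in 20 comparisons. SE is the absolute log2 change divided by the square root of F. DESeq2 1.42.0, other size factors, filters and sample sets, and each mouse left out in turn were alternatives. The scripts were tested on simulated data. No pair of libraries agreed within sampling noise (91 pairs within groups, lowest chi-square per degree of freedom 7.47). Mouse numbers alone mark the replicates, so p-values measure the spread between these samples. The 10 genes, the further 19 clock genes (at most the 3 of lowest adjusted p named per comparison), the marker lists and the motifs were chosen with earlier results of these data known. A gene of the further list is not reported here and is in none of its counts. The 2 sets of mice left out for standing apart or for muscle markers, and the check of Sphk2, were chosen after seeing the data.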

Additional observations from a re-analysis of the deposited data

Results flagged for a closer look

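In groups of 4 or 5 mice, a mouse was listed where its gap to the next, divided by the range of the group, exceeded Dixon's 95% critical value. Of 120 sets of a gene in a group, 15 did so, where independent normal values would give about 1 in 20, or 6. The genes share the same mice and CPM was not transformed, so 6 is no benchmark for these sets. Groups of 3 or fewer were not tested. Mouse B11 of the WT 3 h group was high for Clock (71.8 CPM) and Npas2 (9.42 CPM), and mouse B7 of that group was low for Per1 (3.15 CPM). Mouse B4 of the WT PTU group was high for Per3 (11.7 CPM) and Dbp (5.77 CPM). Mouse 19 of the CTRL 30 °C group was high for Arntl (1.76 CPM) and Npas2 (2.63 CPM). Arntl was high in mouse B12 at 6 h (2.56 CPM) and in mouse B23 at 12 h (5.76 CPM). In the BATKO PTU group, mouse 4 was high for Npas2 (1.02 CPM) and mouse 11 for Per3 (41.4 CPM). In the BATKO 4 °C group, mouse 8 was low for Arntl (2.71 CPM), mouse 11 low for Npas2 (0.330 CPM) and mouse 7 high for Nr1d2 (26.99 CPM). In the CTRL HFD group, mouse 10 was low for Dbp (22.4 CPM). No difference of responses between genotypes passed for these genes in the edgeR fits reported.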

How the results depend on the processing

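Over 190 results for single clock genes, 66 passed in the edgeR fits reported, and 57 of these passed under every alternative in which the gene was tested. Genes of low counts, Npas2 and Ciart among them, were not tested in some alternatives. Of the other 124, 103 passed under none. Of 3056 signed estimates under alternatives, 121, in 40 results, had the opposite sign to the fit reported, none of which passed in either fit. The counts of genes called at 6 h, 12 h, 24 h against 12 h, BATKO against WT under PTU and cold in CTRL mice stayed within 1.5 times under every alternative. At 3 h 6 genes passed without mice B4 and B11, rather than 3. At 24 h 1 passed with a mean count above 50 or with only the 2 groups fitted, where Ciart was too low to be tested. With no filter 3 passed (Dbp added), and 0 to 2 with 1 mouse left out, 0 without mouse B27. From 6 to 12 h 1 passed with all 30 mice fitted, 0 without the mice high in muscle markers, and 0 to 1 with 1 mouse left out. For the difference of hormone responses 1 gene, Dbp, passed without mice B4 and B11, and 0 to 1 with 1 mouse left out. For the difference of cold responses 1 passed with DESeq2, and 0 to 1 with 1 mouse left out, Per2 without CTRL 4 °C mouse 5. Between genotypes at 4 °C 3 passed with DESeq2, 2 with no filter, 0 with only the 2 groups fitted or without the mice high in muscle markers, and 1 to 2 with 1 mouse left out. For HFD in CTRL mice 4 passed with DESeq2 or with no filter, 2 without the mice high in muscle markers, and 1 to 2 with 1 mouse left out. With no filter 1 gene, Per1, passed for the difference of diet responses and 2, Per3 and Dbp, between genotypes on chow. The cause was not tested. No paired analysis was possible because the groups compared share no mouse number within an experiment. Depth limits Npas2 and Ciart most, with 1 to 8 counts of Npas2 per mouse at 6 and 12 h.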
